A study of Mus musculus with 8 samples.

Results

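Transcripts of NF-kB feedback genes and of cytokines that endothelium can make were followed in liver sinusoidal endothelial cells (LSECs), the porous endothelium of the liver's capillaries, after an iron load. The feedback genes *Nfkbia*, *Tnfaip3* and *Birc3*, the subunit gene *Nfkb1* and the chemokines *Cxcl1*, *Cxcl2* and *Ccl2* were chosen by symbol. So were the interleukins *Il6* and *Il1a* and the growth factor *Csf1*, which made 10 genes in all. Of these, 9 were matched to 1 RefSeq target each among the 23930 in the count files, and 8 passed the filter on low counts, which kept 14601 targets in all. *Nfkb1* was not matched to a target and was not analysed here, and *Il6* did not pass the filter. The iron group was 4 young female wild-type Balb/c mice that received iron citrate (150 µg) into a vein 5 h before the cells were taken. The control group was 4 such mice that received 0.05 M citrate buffer alone. The sort gate took cells that were CD45-dim, STAB2-high and CD146-high, and each gene was read through a short amplicon, so a value describes 1 stretch of a transcript. The design text speaks of 5 against 5 samples, and the others were not analysed here.

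NF-kB is a family of transcription factor dimers held in the cytoplasm by inhibitor proteins. Cytokines, microbial products and oxidative stress activate the IKK kinases, which mark the inhibitors for destruction and free the dimers to enter the nucleus. The dimers then induce their own inhibitors, which ends the signal, together with chemokines and cytokines that draw in and sustain leukocytes. In the liver, sinusoidal endothelium faces the blood and the Kupffer cells, the resident macrophages, and interleukin-6 acts on hepatocytes to raise hepcidin, the hormone of iron balance.

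The promoters of 5 members are shown because they carry, or lack, the letters that NF-kB dimers bind. Windows of 300 bases were taken from RefSeq (build GRCm38.p6), from 250 bases before each gene's start to 50 after it, and 8 members had at least 1. The kappa-B letters searched were GGGNNNTTCC on either strand, and capitals mark each match, where overlapping matches run together. Each line gives the gene's own strand, 5′ to 3′.
*Nfkbia*, chr12:55492598-55492897, minus strand: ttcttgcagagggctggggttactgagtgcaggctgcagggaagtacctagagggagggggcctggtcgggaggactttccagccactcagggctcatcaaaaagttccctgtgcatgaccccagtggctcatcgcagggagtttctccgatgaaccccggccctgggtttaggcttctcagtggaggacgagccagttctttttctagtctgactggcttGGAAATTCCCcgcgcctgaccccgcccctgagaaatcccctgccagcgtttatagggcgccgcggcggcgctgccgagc
*Cxcl1*, chr5:90890995-90891294, plus strand: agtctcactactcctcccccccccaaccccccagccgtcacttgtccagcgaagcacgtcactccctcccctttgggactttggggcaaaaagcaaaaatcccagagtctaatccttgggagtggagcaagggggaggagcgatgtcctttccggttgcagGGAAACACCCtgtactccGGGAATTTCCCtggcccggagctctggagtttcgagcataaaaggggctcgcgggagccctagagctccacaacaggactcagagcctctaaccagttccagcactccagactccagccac
*Cxcl2*, chr5:90903649-90903948, plus strand: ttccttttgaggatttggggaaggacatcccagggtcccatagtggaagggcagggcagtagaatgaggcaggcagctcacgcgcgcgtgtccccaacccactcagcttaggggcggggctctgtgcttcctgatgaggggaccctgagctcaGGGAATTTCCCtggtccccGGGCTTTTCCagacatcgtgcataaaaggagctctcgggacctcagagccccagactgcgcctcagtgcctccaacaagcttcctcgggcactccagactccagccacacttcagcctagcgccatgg
*Csf1*, chr3:107760420-107760719, minus strand: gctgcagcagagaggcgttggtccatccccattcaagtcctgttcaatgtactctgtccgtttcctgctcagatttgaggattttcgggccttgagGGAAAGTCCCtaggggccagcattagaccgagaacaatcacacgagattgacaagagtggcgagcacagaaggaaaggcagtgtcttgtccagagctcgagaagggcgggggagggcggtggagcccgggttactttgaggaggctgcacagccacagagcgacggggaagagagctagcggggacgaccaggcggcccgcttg
*Il1a*, chr2:129309923-129310222, minus strand: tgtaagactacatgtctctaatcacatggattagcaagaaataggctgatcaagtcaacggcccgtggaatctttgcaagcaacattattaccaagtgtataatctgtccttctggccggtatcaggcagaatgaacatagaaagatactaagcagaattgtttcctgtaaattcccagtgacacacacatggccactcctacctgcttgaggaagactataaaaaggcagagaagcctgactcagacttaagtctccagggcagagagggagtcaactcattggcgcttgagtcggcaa
The letters were found in 7 of the 9 member windows, belonging to 6 of 8 genes, and in 5.56% of the 32851 windows of all genes. *Cxcl1* and *Cxcl2* share a longer run of capitals that matches on both strands, and each has a further match near it. *Nfkbia* had its match with the first base at position -29 from the start, and *Csf1* at -154. The *Il1a* and *Birc3* windows held none. The AP-1 letters TGANTCA were found in windows of 3 of the 8 genes (*Il1a*, *Il6* and *Tnfaip3*) and in 7.81% of all windows. The core of the antioxidant response element, to which NRF2 binds, TGACNNNGC, was found in *Nfkbia* alone of the 8 and in 12.4% of all windows. A match describes letters, not a bound site.

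Counts on targets ran from 7969520 to 11314659 per library. Citrate buffer replicate 1 stood apart from the rest. It correlated with the other buffer libraries at a median of 0.839, where the other 7 libraries reached 0.962 to 0.981 within their groups, and 2.42% of its counts fell on olfactory, vomeronasal type 1 and bitter taste receptor and keratin-associated protein targets, families liver is not known to express. That share was 0.983% in citrate buffer replicate 2 and 0.295% to 0.611% in the other 6 libraries. The 14 LSEC markers summed to between 31028 and 33931 CPM (counts scaled to library size) in iron citrate libraries. In the buffer group the sum was 19514 CPM for replicate 1, while replicates 2 to 4 had 29698 to 38117 CPM. None of the 14 was called by edgeR, and without citrate buffer replicate 1 *Mcam*, which encodes the CD146 of the sort gate and was named after its values were seen, was lower, at 179 ± 11.3 CPM after iron citrate and 269 ± 15.2 CPM after buffer (adjusted p = 0.0135). DESeq2 called *Mcam* in all libraries (adjusted p = 0.00319), as did limma-voom, fitted with a weight for each library (adjusted p = 0.00813). The test of each member is therefore given with and without citrate buffer replicate 1.

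None of the 8 tested members changed after iron citrate, in either direction, at an adjusted p under 0.05 in edgeR's quasi-likelihood test, while 0.555% of all tested targets did (0.527% higher, 0.0274% lower). At an unadjusted p under 0.05 the count of members was also 0, where 14.6% of all targets passed (6.57% higher, 8% lower). DESeq2 called 0 members and 2.5% of all targets, and limma-voom 0 members and 1.98%. The iron citrate and buffer values overlapped for all 8 members, and did not for 8.64% of all targets. Without citrate buffer replicate 1, edgeR again called 0 members and 1.76% of all targets (1.5% higher, 0.258% lower), DESeq2 0 members and 3.59%. All 8 members overlapped there too, and 12.9% of all targets did not. The fitted log2 fold changes of the 8, iron citrate over buffer, had a median of 0.013, with 4 above and 4 below 0, and the median over all targets was -0.0097. The precision behind these values differed from gene to gene, so each is given with its SE.

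**Figure D1:**
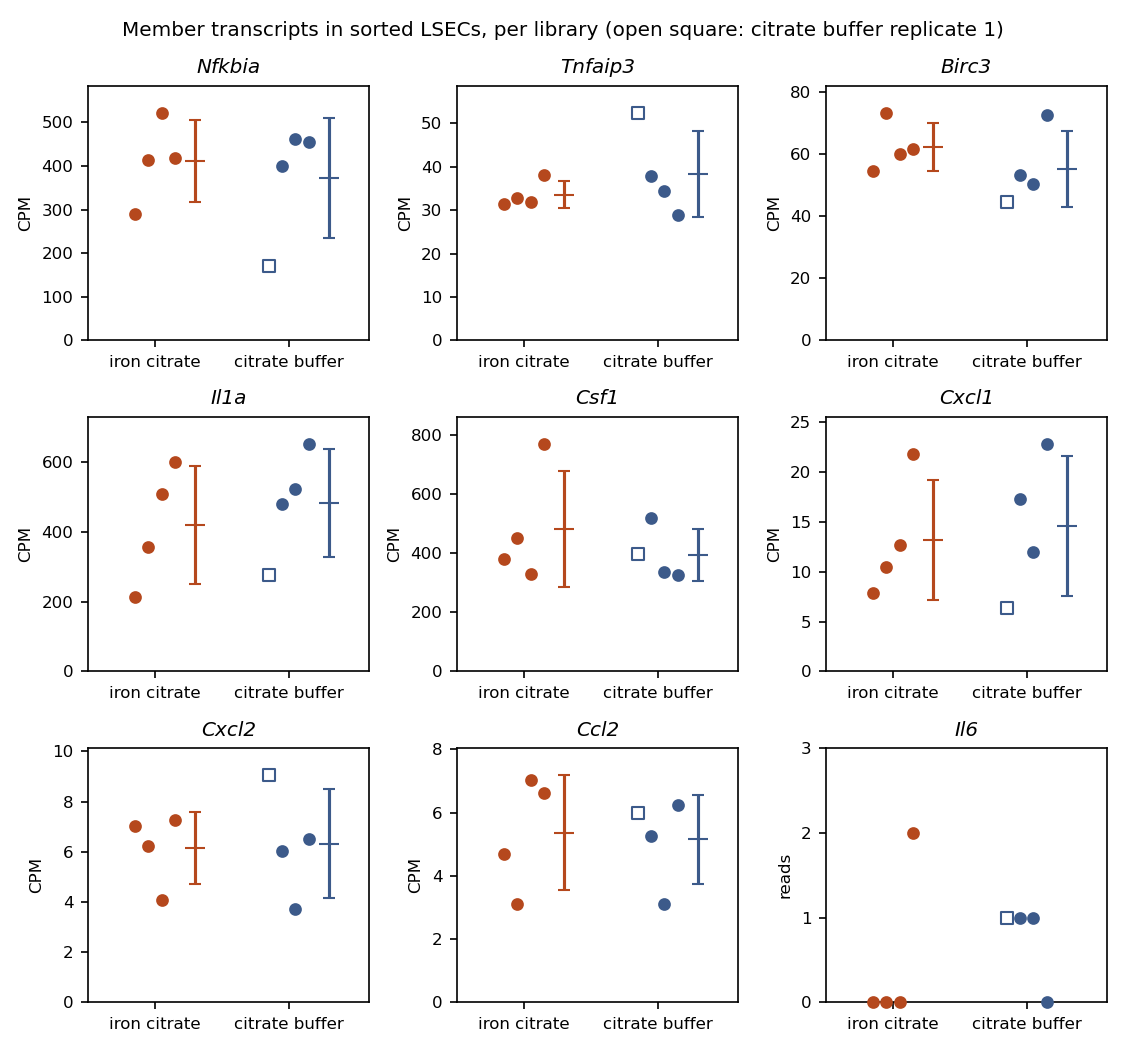
CPM of 8 members, and reads of *Il6*, in each library of the iron citrate group (left, red) and the citrate buffer group (right, blue); bars give the mean and SD of 4 libraries for all but *Il6*, and the open square is citrate buffer replicate 1. The groups overlap in every panel, and citrate buffer replicate 1 is the lowest library of all for *Nfkbia*, at 171 CPM, and the highest for *Tnfaip3*, at 52.3 CPM.

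*Nfkbia* encodes IkB-alpha, the inhibitor that NF-kB re-induces within the first rounds of its own activity. It stood at 291, 414, 521 and 419.6 CPM in iron citrate replicates 1 to 4, against 171, 401, 462 and 455 CPM in citrate buffer replicates 1 to 4. The low buffer value was replicate 1, and the other 3 buffer libraries lay within the iron citrate range. *Nfkbia* had a log2 fold change of 0.14 (SE 0.30, edgeR adjusted p = 0.819), and its 95% interval ran from 0.694-fold to 1.76-fold. Without citrate buffer replicate 1 the sign turned, to -0.10 (SE 0.16, adjusted p = 0.816), and the interval narrowed to 0.733-fold to 1.19-fold. In that smaller comparison *Nfkbia* averaged 411 ± 94.4 CPM after iron citrate (SD, n = 4) and 439 ± 33.6 CPM after buffer (n = 3).

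*Tnfaip3* encodes A20, which edits ubiquitin chains to shut off signalling from TNF and Toll-like receptors. Its 4 iron citrate libraries were close together, at 31.4, 32.8, 31.8 and 38.0 CPM, against 52.3, 37.7, 34.3 and 28.9 CPM in citrate buffer replicates 1 to 4. The iron citrate values lay inside the buffer range. For *Tnfaip3* the log2 fold change was -0.19 (SE 0.19, edgeR adjusted p = 0.588). It was -0.0090 without citrate buffer replicate 1 (SE 0.14, adjusted p = 0.981), with an interval of 0.804-fold to 1.23-fold, the tightest around no change among the members.

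*Birc3* encodes cIAP2, a ubiquitin ligase that acts at TNF receptors. It stood at 54.4, 73.0, 59.9 and 61.5 CPM after iron citrate and at 44.4, 53.3, 50.2 and 72.6 CPM after buffer. The buffer group held both the lowest value and, in replicate 4, one close to the highest iron citrate value. *Birc3* had a log2 fold change of 0.18 (SE 0.17, edgeR adjusted p = 0.591), and 0.09 (SE 0.15, adjusted p = 0.822) without citrate buffer replicate 1. It was above 0 in all 19 alternative settings, between 0.02 and 0.34, and passed the threshold in none of them.

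**Figure D2:**
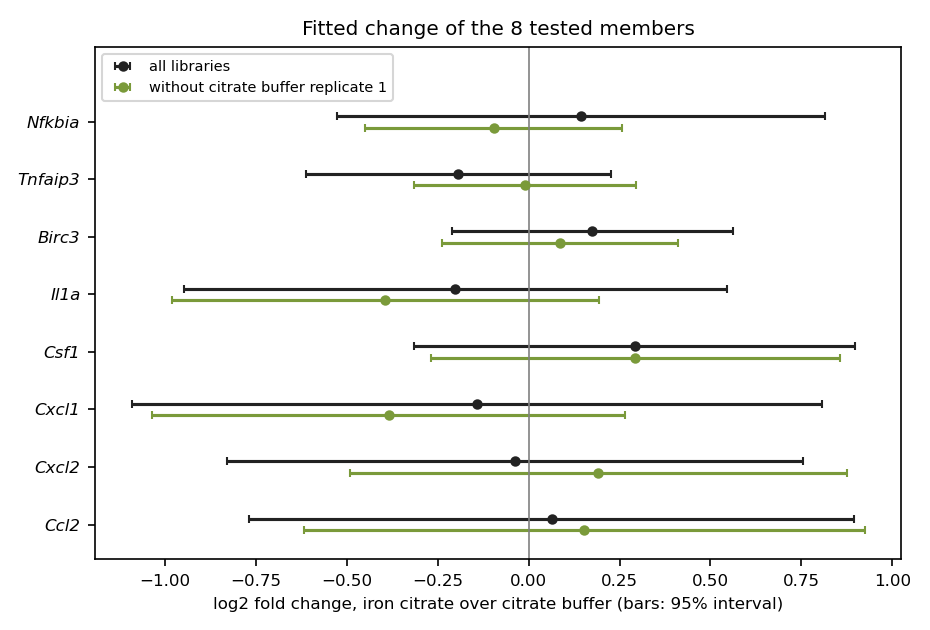
Log2 fold change of each tested member, iron citrate over citrate buffer, with its 95% interval, in all libraries (black) and without citrate buffer replicate 1 (green). Every interval includes 0, and without that library *Tnfaip3* lies at -0.0090 and *Il1a* at -0.39.

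Of the cytokines, *Il1a* and *Csf1* had many reads, whereas *Cxcl1*, *Cxcl2*, *Ccl2* and *Il6* had few reads. Amplicons differ in efficiency, so these levels do not rank the genes against each other. *Il1a* encodes interleukin-1 alpha, an alarmin that acts through the receptor IL1R1. It stood at 214, 357, 508 and 599.7 CPM in iron citrate replicates 1 to 4 and at 276, 479, 523 and 651 CPM in citrate buffer replicates 1 to 4. The spread within each group was wider than the distance between the groups, and the lowest value of all was iron citrate replicate 1. *Il1a* had a log2 fold change of -0.20 (SE 0.33, edgeR adjusted p = 0.768) and, without citrate buffer replicate 1, -0.39 (SE 0.27, adjusted p = 0.563), an interval of 0.507-fold to 1.14-fold. With the replicate number as a block the log2 fold change was -0.24 (SE 0.15, edgeR adjusted p = 0.478). It lay below 0 in 18 of the 19 alternative settings and passed the threshold in none. The lowest value was -0.65, with limma-voom (SE 0.31, adjusted p = 0.355). It turned to 0.018 when iron citrate replicate 1 was left out.

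*Il1a* had the highest mean CPM of the members, so the targets whose pattern was most like it were sought. Over the 7 libraries without citrate buffer replicate 1 they were *Tmem170*, *Mfsd10* and *Rhno1*, with Pearson correlations of log2 CPM of 0.973, 0.972 and 0.971. These are the 3 highest of the 14601 tested targets, and picking the highest over 7 libraries favours large values. The libraries also share the sort and the kit.

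*Csf1* encodes the growth factor that sustains macrophages, Kupffer cells among them. It stood at 379, 451, 328 and 767 CPM after iron citrate, against 395, 517, 336 and 325 CPM after buffer. Iron citrate replicate 4 was the highest library and the other 3 lay within the buffer range. For *Csf1* the log2 fold change was 0.29 (SE 0.27, edgeR adjusted p = 0.57), with an interval of 0.804-fold to 1.86-fold, and it was -0.026 without iron citrate replicate 4. Leaving out citrate buffer replicate 1 gave 0.29 as well (SE 0.26, adjusted p = 0.644). Within the iron citrate group the order of the libraries by *Csf1* was also their order by the share of counts on the silent receptor and keratin-associated families, from 0.295% in replicate 3 to 0.611% in replicate 4. In the buffer group replicates 2 to 4 kept that order too, while replicate 1, with the largest share, did not. With that share as a covariate the log2 fold change was 0.51 (adjusted p = 0.38). Its part in the *Csf1* values was not tested.

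*Cxcl1* and *Cxcl2* encode chemokines that draw neutrophils through CXCR2. *Cxcl1* had 80, 91, 121 and 237 reads in iron citrate replicates 1 to 4, or 7.82, 10.5, 12.7 and 21.8 CPM, against 67, 207, 135 and 172 reads in citrate buffer replicates 1 to 4, or 6.38, 17.3, 12.0 and 22.8 CPM. All 4 iron citrate values lay within the buffer range. *Cxcl1* had a log2 fold change of -0.14 (SE 0.42, edgeR adjusted p = 0.876) and, without citrate buffer replicate 1, -0.38 (SE 0.30, adjusted p = 0.608). *Cxcl2* had 72, 54, 39 and 79 reads after iron citrate and 95, 72, 42 and 49 reads after buffer, which gave 6.15 ± 1.44 and 6.32 ± 2.18 CPM (SD, n = 4 each). Its log2 fold change was -0.04 (SE 0.36, edgeR adjusted p = 0.965), and 0.19 (SE 0.32, adjusted p = 0.811) without citrate buffer replicate 1. These chemokine genes are close relatives, and how reads common to both would have been counted is uncertain.

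*Ccl2* encodes the chemokine that recruits monocytes through CCR2. It had 48, 27, 67 and 72 reads in iron citrate replicates 1 to 4 and 63, 63, 35 and 47 reads in citrate buffer replicates 1 to 4. The groups averaged 5.36 ± 1.82 and 5.15 ± 1.42 CPM (SD, n = 4 each), and the lowest libraries of both lay at 3.11 CPM after iron citrate and 3.12 CPM after buffer. For *Ccl2* the log2 fold change was 0.06 (SE 0.37, edgeR adjusted p = 0.943), with an interval of 0.587-fold to 1.86-fold. It was 0.15 (SE 0.36, adjusted p = 0.869) when citrate buffer replicate 1 was left out. At this depth and spread between libraries, changes of either sign within the interval of all libraries were not excluded.

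*Il6* was close to absent from the libraries. It had 0, 0, 0 and 2 reads in iron citrate replicates 1 to 4 and 1, 1, 1 and 0 reads in citrate buffer replicates 1 to 4, which is 2 reads over the iron citrate group and 3 over the buffer group. A count of 0 allows up to 3 reads, or between 0.293 and 0.345 CPM in iron citrate replicates 1 to 3 and 0.397 CPM in citrate buffer replicate 4, for counting error only. No difference was detectable at this depth.

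The spread between libraries, as the SD over the mean, differed among the members. It was 9.16% after iron citrate and 26.1% after buffer for *Tnfaip3*, and 13.3% among citrate buffer replicates 2 to 4. For *Nfkbia* it was 23.0% after iron citrate and 36.8% after buffer, and 7.65% among citrate buffer replicates 2 to 4. *Csf1* and *Il1a* had 41.0% and 40.5% after iron citrate, against 22.4% and 32.2% after buffer, and *Cxcl1* had 45.9% after iron citrate and 48.1% after buffer. In bulk RNA of sorted cells, fewer cells of a type and less RNA per cell cannot be told apart.

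The rest of the pathway was read through 5 lists, which hold the members too. edgeR called none of the 4 tested subunit genes, whose log2 fold changes had a median of -0.0064. Without citrate buffer replicate 1 the median was -0.24, with 1 above and 3 below 0, and again none was called. The summed level of the 4 ran from 369 to 437 CPM after iron citrate. It was 306 CPM in citrate buffer replicate 1 and 439 to 502 CPM in citrate buffer replicates 2 to 4. *Rela*, the main activating subunit, stood at 236 ± 15.8 CPM after iron citrate and 241 ± 76.5 CPM after buffer (SD, n = 4 each; edgeR adjusted p = 0.961). *Nfkb2*, whose product is cut to p52, stood at 103 ± 19.5 and 126 ± 22.0 CPM (adjusted p = 0.383), and *Rel* at 62.1 ± 4.12 and 61.5 ± 12.1 CPM (adjusted p = 0.967).

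Of 15 tested kinases and adaptors none was called in all libraries, by edgeR, and 2 were higher at an unadjusted p under 0.05, beside 6.57% of all targets. The median log2 fold change was 0.19, with 13 above and 2 below 0. The iron citrate and buffer values did not overlap for 3 of 15, beside 8.64% of all targets. *Tbk1*, an IKK-related kinase that acts beside the classical IKK complex, stood at 355, 331, 364 and 315 CPM in iron citrate replicates 1 to 4, against 158, 207, 205 and 237 CPM in citrate buffer replicates 1 to 4. All 4 iron citrate libraries lay above all 4 buffer libraries. *Tbk1* had a log2 fold change of 0.76 (SE 0.15, adjusted p = 0.0648), and the call was made without citrate buffer replicate 1, where *Tbk1* rose 1.58-fold (log2 fold change 0.66, SE 0.12, adjusted p = 0.00893). DESeq2 called it in all libraries (adjusted p = 2.82e-05), as did limma-voom (0.00379), and the adjusted p ranged from 1.78e-06 to 0.271 over the 19 alternatives, of which 9 made the call. *Map3k7*, which encodes the kinase TAK1 upstream of IKK, stood at 242 ± 13.0 and 224 ± 12.7 CPM (adjusted p = 0.604), and its partner *Tab2* at 118 ± 23.7 and 88.9 ± 12.6 CPM (adjusted p = 0.333).

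Of 20 tested inhibitors and feedback genes, 3 of them members, edgeR called none in all libraries and DESeq2 called 2, *Ier3* and *Tnfaip2*. At an unadjusted p under 0.05 in edgeR 2 of 20 were higher, beside 6.57% of all targets. The median log2 fold change was 0.10, with 13 above and 7 below 0. It was 0.055 without citrate buffer replicate 1 (11 above and 9 below 0) and -0.023 with limma-voom in all libraries (9 above and 11 below). *Nfkbib*, a second IkB protein gene, stood at 234 ± 14.3 and 265 ± 21.9 CPM (edgeR adjusted p = 0.419), *Tax1bp1*, an adaptor of A20, at 165 ± 6.13 and 156 ± 23.9 CPM (0.765) and the nuclear IkB gene *Nfkbiz* at 108 ± 23.1 and 98.5 ± 10.9 CPM (0.666). *Ier3*, an early response gene that NF-kB and stress signals induce, is named after its values were seen. It had 29.3, 18.7, 29.8 and 26.9 CPM after iron citrate and 12.0, 10.9, 14.8 and 16.4 CPM after buffer, so the groups did not overlap. Its log2 fold change was 0.95 (SE 0.22, adjusted p = 0.137) in all libraries. Without citrate buffer replicate 1 *Ier3* rose 1.87-fold (adjusted p = 0.0336), and DESeq2 called it in all libraries (0.00283). *Tnfaip2*, also named after its values were seen, stood at 20.6 ± 4.21 and 11.9 ± 2.31 CPM without overlap, with an edgeR log2 fold change of 0.79 (adjusted p = 0.264; DESeq2 adjusted p = 0.0253).

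**Figure D3:**
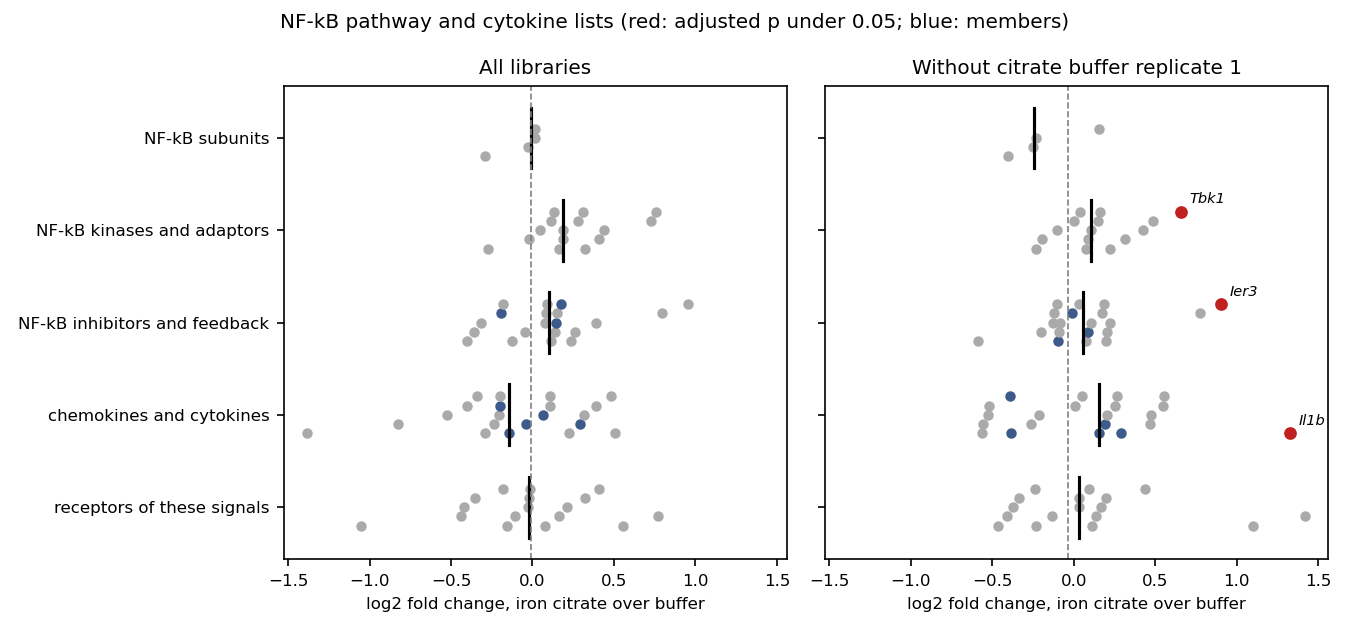
Log2 fold change, iron citrate over citrate buffer, of every tested gene in 5 lists, in all libraries (left) and without citrate buffer replicate 1 (right); black bars give list medians, the dashed line the median of all tested targets, blue points the members and red points genes past an adjusted p of 0.05. No gene is red on the left, and *Tbk1*, *Ier3* and *Il1b* are red on the right.

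Of 28 chemokines and cytokines 21 passed the filter, none was called in all libraries by edgeR, and 3 were lower at an unadjusted p under 0.05, beside 8% of all targets. The median log2 fold change was -0.14, and 0.15 without citrate buffer replicate 1. Among the most abundant non-members, *Ccl5*, a T and NK cell chemokine, stood at 643 ± 132 and 758 ± 452 CPM (adjusted p = 0.734). *Cxcl9*, an interferon-gamma-induced chemokine that LSECs make, stood at 475 ± 87.3 and 684 ± 134 CPM, which is -0.53 on the log2 scale (adjusted p = 0.333). *Cxcl16*, a membrane-bound chemokine of these cells, stood at 410.2 ± 20.8 and 381 ± 61.0 CPM (adjusted p = 0.714). *Il1b*, the second IL1R1 ligand, was named after its values were seen. It had 94.0, 59.8, 74.3 and 59.8 CPM in iron citrate replicates 1 to 4, against 134, 29.7, 32.0 and 24.0 CPM in citrate buffer replicates 1 to 4.

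Citrate buffer replicate 1 was thus the highest library for *Il1b* and the other 3 buffer libraries were the lowest. In all libraries the log2 fold change was 0.39 (SE 0.51, edgeR adjusted p = 0.694), and DESeq2 gave no p. Without citrate buffer replicate 1 *Il1b* rose 2.51-fold (log2 fold change 1.33, SE 0.18, adjusted p = 0.000618), while *Il1a* in the same fit had a log2 fold change of -0.39 that did not pass. Of 12 neutrophil markers, 10 were tested, and edgeR called none in all libraries (6 above and 4 below 0). The summed level of the 12 was, like *Il1b*, highest in citrate buffer replicate 1 and lowest in the other 3 buffer libraries. It ran from 275 to 321 CPM in iron citrate libraries, against 502 CPM for citrate buffer replicate 1 and 172 to 225 CPM for the other 3 buffer libraries. Among these 3 the sum was lowest in replicate 3, where *Il1b* was highest. Without citrate buffer replicate 1, 4 neutrophil markers rose as well (*S100a8*, *S100a9*, *Csf3r* and *Retnlg*, by 1.71-fold to 2.35-fold, named after their values were seen). The other 6 were not called, of which *Camp* at -0.38 and *Ly6g* at -0.67 lay below 0 on the log2 scale, and *Mpo* stayed under 1 CPM in every library. Their part in the *Il1b* values was not tested.

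**Figure D4:**
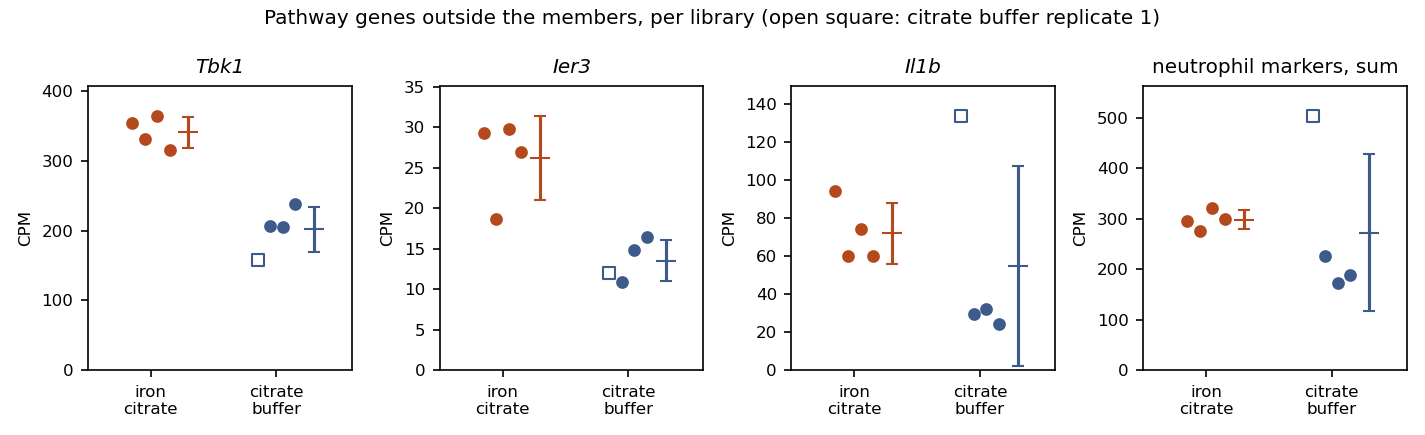
CPM of *Tbk1*, *Ier3* and *Il1b* and the summed CPM of 12 neutrophil markers in each library, iron citrate on the left (red) and citrate buffer on the right (blue), with the mean and SD of 4 libraries; the open square is citrate buffer replicate 1. For *Tbk1* and *Ier3* all iron citrate libraries lie above all buffer libraries, while for *Il1b* and the neutrophil sum the open square is highest, at 134 and 502 CPM.

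Of 17 tested receptors edgeR called none in all libraries and DESeq2 called 1, *Il1r1*. At an unadjusted p under 0.05 in edgeR 1 of 17 was lower, beside 8% of all targets. The median log2 fold change was -0.02, with 7 above and 10 below 0. Without citrate buffer replicate 1 it was 0.034, with 10 above and 7 below 0. There the groups did not overlap for 3 of 17, beside 12.9% of all targets. The summed level of the 17 ran from 3468 to 3882 CPM after iron citrate. It was 2373 CPM in citrate buffer replicate 1 and 4010 to 4706 CPM in citrate buffer replicates 2 to 4. The shared receptor of the interleukin-6 family, *Il6st*, which encodes gp130, stood at 2546 ± 191 CPM after iron citrate and 2743 ± 977 CPM after buffer (edgeR adjusted p = 0.847). The TNF receptor gene *Tnfrsf1a* stood at 488 ± 33.8 and 391 ± 136 CPM (adjusted p = 0.504) and *Ly96*, the partner of TLR4, at 204 ± 41.8 and 205 ± 60.2 CPM (0.98). *Il1r1*, the receptor of both interleukin-1 cytokines and named after its values were seen, had 42.4, 40.4, 36.2 and 35.5 CPM after iron citrate and 49.3, 59.6, 47.9 and 52.3 CPM after buffer. The groups did not overlap. Its log2 fold change was -0.44 (SE 0.13, adjusted p = 0.292), and -0.47 (adjusted p = 0.109) without citrate buffer replicate 1. DESeq2 called it lower in all libraries (adjusted p = 0.0184).

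Markers of other cell types, among them types known to make these cytokines, were also read in the sorted cells. The 12 Kupffer cell and macrophage markers summed to between 688 and 1190 CPM after iron citrate and between 775 and 1075 CPM after buffer, of which *Lyz2* made up 499 ± 69.3 and 655 ± 214 CPM. edgeR called none of the 10 that were tested. The median log2 fold change of the 10 was 0.52, with 8 above and 2 below 0. Without citrate buffer replicate 1 it was 0.17, with 9 above and 1 below 0, and again none was called. *C1qa* and *C1qc* stayed under 1 CPM in every library, while the Kupffer cell genes *Clec4f*, *C1qb* and *Cd5l*, named after their values were seen, averaged 47.4, 42.9 and 41.0 CPM over the 8 libraries. In citrate buffer replicate 1 these stood at 5.90, 4.38 and 5.62 CPM, below every other library, whereas *Lyz2* was highest there at 952 CPM. The 10 stellate cell and fibroblast markers summed to between 492 and 763 CPM after iron citrate and between 304 and 752 CPM after buffer, with none called by edgeR. Their median log2 fold change was 0.31, with 7 above and 3 below 0, and 0.027 without citrate buffer replicate 1. The 10 T, NK and B cell markers with a target summed to between 1005 and 1151 CPM after iron citrate, against 2377 CPM for citrate buffer replicate 1 and 924 to 1288 CPM for citrate buffer replicates 2 to 4. The 8 hepatocyte markers with a target summed to between 343 and 704 CPM after iron citrate and between 434 and 837 CPM after buffer. edgeR called none, 7 of 8 lay below 0 and the median log2 fold change was -0.32. DESeq2 without citrate buffer replicate 1 called *Alb*, the albumin gene, lower, at 319 ± 107 CPM after iron citrate (n = 4) and 512 ± 131 CPM after buffer (n = 3; adjusted p = 0.0439). The 7 monocyte and dendritic cell markers with a target summed to between 454 and 505 CPM after iron citrate and between 344 and 472 CPM after buffer. Of these 5 lay below 0, none of them called by edgeR, and the list's median was -0.36 on the log2 scale. *Clec9a* alone of the 7 was called, and it rose 1.69-fold, to 333 ± 4.40 CPM after iron citrate, against 197 ± 22.0 CPM after buffer (edgeR adjusted p = 0.0221). The part of these cells in the members' values was not tested.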

How the data were processed

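The authors deposited whole-number read counts per RefSeq target, 1 file per library, made with HTSeq 0.6.0, with DESeq2 1.18.1 also named, per the submitters' processing notes. Per the labels' protocols, an Ion AmpliSeq kit amplified a short piece of each mouse transcript. No source used here gives the aligner, build or read filters. HTSeq's summary lines, 2.15% to 4.60% of the reads in a file, entered neither library sizes nor tests. Symbols came from RefSeq and GENCODE tables, and 1368 targets kept their accession. The labels speak of a mouse per replicate and say nothing of pooling.

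All targets were fitted at once with edgeR 4.0.16 in R 4.3.3 (filterByExpr, TMM factors, robust quasi-likelihood F-test), with Benjamini-Hochberg adjustment over the 14601 tested. CPM use TMM-scaled library sizes. SEs come from the F statistic and intervals from the fit's degrees of freedom. Amplicon reads carry no molecular identifiers, so the limits given for counts of 0 cover counting error only. The scripts were tested on simulated data with 4 libraries per group. Where 100 targets had a true 2-fold difference, edgeR found 31, DESeq2 49 and limma-voom 26. For a 4-fold difference the numbers found were 78, 88 and 71. Among 14270 targets without a difference, the false calls were 3 by edgeR, 45 by DESeq2 and 4 by limma-voom. A missing edgeR call alone therefore does not exclude a 2-fold change, and calls by DESeq2 alone need more caution. DESeq2 1.42.0 and limma 3.58.1 (voom with a weight for each library) were alternatives. The limma-voom fit of all libraries therefore did not count each library equally. Further alternatives were other scalings and filters, a replicate block, a covariate and left-out libraries. All 28 pairs of libraries differed by more than sampling noise (chi-square per degree of freedom at least 8.34).

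Members and lists were chosen with earlier results of these data known. The genes named were the members, the called genes of each list or its 3 most abundant non-members (the 3 most abundant and any called one in cell type lists, of which some are given only by their sums), and 3 targets like the most abundant member; others are marked in the text.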

Additional observations from a re-analysis of the deposited data

Results flagged for a closer look

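Among 98 groups of 4 libraries, 1 library lay far from the other 3 in 8, where chance gives about 1 in 20. None of the 16 groups of a tested member was among them, and the widest relative gap there was 0.789. In citrate buffer replicate 1 the neutrophil genes *S100a9* and *Csf3r* stood at 136 and 75.5 CPM, *Il1b* at 134 CPM and the granzyme gene *Gzma* at 1261 CPM, each the highest of the buffer group. *Cd3e* was lowest in citrate buffer replicate 4, at 135 CPM. In the iron citrate group *Alb* and *Apoa1* were highest in replicate 1, at 479 and 66.8 CPM, and *Cd68* in replicate 3, at 62.6 CPM.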

How the results depend on the processing

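No member was called in any of the 19 alternatives, and *Birc3* kept its sign in all of them. The DESeq2 adjusted p of *Cxcl2* and *Ccl2* was not given without citrate buffer replicate 1. Signs of uncalled members turned for *Nfkbia* with limma-voom (-0.19), the silent-family covariate (-0.22), without citrate buffer replicates 1 and 2 (-0.16) and with DESeq2 without citrate buffer replicate 1 (-0.12). With that covariate *Tnfaip3* was at 0.084 and *Cxcl2* at 0.34, and without citrate buffer replicates 1 and 2 they were at 0.082 and 0.29. *Cxcl2* was at 0.31 with limma-voom and 0.17 with DESeq2 without citrate buffer replicate 1. *Ccl2* was at -0.066 with upper-quartile factors, which moved the median of all targets by -0.11, and -0.049 with library totals. The cause was not tested. Leaving out 1 library gave log2 fold changes of -0.10 to 0.28 for *Nfkbia*, -0.30 to -0.0090 for *Tnfaip3*, 0.09 to 0.34 for *Birc3*, -0.50 to 0.15 for *Cxcl1*, -0.22 to 0.19 for *Cxcl2*, -0.12 to 0.25 for *Ccl2*, -0.42 to 0.018 for *Il1a* and -0.026 to 0.45 for *Csf1*.

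Over all targets, 77 were called higher and 4 lower. The numbers were 295 and 70 with DESeq2, 246 and 43 with limma-voom, 233 and 94 with the covariate, 200 and 81 without citrate buffer replicates 1 and 2, and 396 and 132 with DESeq2 without citrate buffer replicate 1. Leaving out 1 library gave 45 to 221 higher and 0 to 38 lower, the largest of both without citrate buffer replicate 1. With the replicate block 43 were higher and 0 lower, by edgeR. Same-numbered libraries correlated at -0.00030, 0.18, 0.61 and -0.32 in their deviations from the group means. With 4 libraries per group these values do not settle whether the numbers pair the samples. The block changed no call of a member.

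In the lists, the kinases and adaptors had 1 called gene, *Tbk1*, in 9 alternatives: upper-quartile factors, library totals, DESeq2, limma-voom, a mean CPM of at least 5, the covariate, and the 3 fits without citrate buffer replicate 1. The inhibitors had 2 with DESeq2, with and without citrate buffer replicate 1 (*Ier3* and *Tnfaip2*), and 1, *Ier3*, with the covariate or by edgeR without that library. The cytokines had 1 with limma-voom and in both tools without that library (*Il1b*), 1 with the covariate (*Ccl3*), and 2 without citrate buffer replicates 1 and 2 (*Il1b* and *Ccl3*). The receptors had 1 lower, *Il1r1*, with DESeq2 in both sets of libraries. Leaving out 1 library gave 0 to 1 called gene in the lists of kinases, inhibitors and cytokines, and 0 in those of receptors and subunits. Low read numbers limit *Il6*. *Cxcl1*, *Cxcl2* and *Ccl2* also had few reads, and their libraries spread beyond counting error, which limits them too.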
